A study of Homo sapiens with 5 samples.

Results

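Human embryonic stem cells of the line WA09, differentiated towards GnRH neurons, were compared between day 22 (D22) and day 24 (D24), to describe how progenitors of the culture gave way to neurons. The cells were those barcodes of the D22 and D24 libraries that held at least 1500 unique molecular identifiers (UMIs, each a single captured RNA molecule), at least 1000 genes and under 20% of UMIs from mitochondrial genes. In total 18649 of the 19729 barcodes of both days were kept, 9539 at D22 and 9110 at D24, out of 44007 barcodes in the whole series. Both groups were unedited (Wild Type) cells of this line on the same schedule. Dorsomorphin and SB431542, which block both branches of SMAD signalling, gave neural progenitors, and FGF8 then patterned them towards the anterior forebrain. The cells were frozen and thawed as progenitors, replated, and kept from the following day in DAPT, an inhibitor of gamma-secretase that stops Notch signalling, so that D22 and D24 cells both came from DAPT medium and D24 cells had been in it longer. No treatment is labelled for either day, and no culture without DAPT was collected on these days. Each day was 1 droplet library with no replicate, so the day, the time in DAPT and the library cannot be told apart, no difference was tested, and all intervals are 95% intervals of counting error only.

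Neural progenitors of the ventricular zone divide while Notch signalling holds them back from differentiation. A cell that receives a Notch signal makes HES factors, which repress proneural genes such as NEUROG1, while a cell with high proneural activity shows Delta ligands to its neighbours and moves towards the neuronal fate. A cell that leaves the cycle for good shuts off the mitotic genes, loses SOX2, passes through a short proneural stage and then turns on the cytoskeletal and synaptic genes of a neuron. GnRH neurons, which govern reproduction from the hypothalamus, are one of the neuron types made by this protocol.

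The kept cells held 131187195 UMIs at D22 and 70240335 at D24, with a median of 12183 and 7180.5 UMIs per cell and a median mitochondrial share of 3.25% and 3.96%. The genes of ribosomal proteins took 23.8% of UMIs at D22 and 19.2% at D24. With these and the mitochondrial genes left out of the totals, 1519 of the 10549 genes compared were at least 2-fold lower and 954 at least 2-fold higher at D24, against 1218 and 955 of 9845 with them. The 2 libraries had 26 of their kept barcodes in common, 0.273% of those at D22. A doublet score above 0.25 was reached by 4.39% of cells at D22 and 6.84% at D24. The labels call the cells of both days neurons, and at D22 this label was not borne out by the markers, since 23.95% of the cells held mitotic transcripts by the gate described below. Markers of other cells had low summed levels on both days. The summed level of the 13 astrocyte and glial precursor markers was 96.1 and 35.7 CPM (counts per 1000000 UMIs), that of the 15 epithelial and mesenchymal markers 55.7 and 10.2 CPM, and that of the 8 pluripotency markers 71.9 and 19.9 CPM. It was highest for the 12 multiciliated markers, at 163 and 91.2 CPM, and the 13 markers of neural crest and placode, at 138 and 92.7 CPM. These sums do not show that such cells were present. DACH1, of the placode list, was at 149 and 85.3 CPM in the cells of the neuronal gate described below. FOXJ1, a multiciliated marker, was at 3.15 and 1.40 CPM in the cells outside both gates.

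MKI67, a nuclear protein of dividing cells, and SOX2, the transcription factor that maintains neural progenitors, were far scarcer at D24, while STMN2, a microtubule regulator of growing axons, was found in almost every cell. Because the D22 cells held more UMIs each, every cell was first thinned to 1500 UMIs. More RNA per cell and deeper sequencing cannot be told apart here. After thinning, a UMI of MKI67 was found in 1082 of 9539 cells at D22, or 11.3% (10.7 to 12.0%), and in 32 of 9110 cells at D24, or 0.351% (0.240 to 0.496%). This is a difference of -10.99 percentage points (-11.65 to -10.35). SOX2 was found in 23.1% of cells (22.3 to 23.99%) and in 1.89% (1.62 to 2.19%), a difference of -21.24 points (-22.13 to -20.35). STMN2 went the other way, with 45.4% of cells (44.4 to 46.4%) at D22 and 99.4% (99.2 to 99.5%) at D24, a difference of 53.96 points (52.94 to 54.97). Without thinning the shares were 30.7% and 0.790% for MKI67, 66.4% and 6.09% for SOX2, and 70.9% and 99.8% for STMN2.

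Summed over cells, MKI67 (chromosome 10, 128096659 to 128126423, minus strand, GRCh38) had a level of 147 CPM in the D22 library and 4.06 CPM in the D24 library, with a log2 ratio (D24 over D22) of -5.18 (-5.35 to -5.01). SOX2 (chromosome 3, 181711925 to 181714436, plus strand) had 225 and 17.5 CPM, and its log2 ratio was -3.68 (-3.77 to -3.60). STMN2 (chromosome 8) had 1289.6 and 9035 CPM, and its log2 ratio was 2.81 (2.80 to 2.82). In summed counts, fewer cells of a type and less RNA per cell cannot be told apart. The next library in time, D26, held MKI67 at 1.12, SOX2 at 10.7 and STMN2 at 8087 CPM, so that for all 3 genes the step from D22 to D24 was larger than that from D24 to D26.

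Single cells were then sorted by the 3 genes together. At D22, cells with only STMN2 among the 3 genes made up 37.2% of the thinned cells, cells with none of the 3 made up 33.2%, cells with only SOX2 12.3%, and cells with MKI67 and without STMN2 4.03% with SOX2 and 5.05% without it. At D24, 97.6% of the cells held STMN2 only. Cells with none of the 3 genes were 0.362%, or 33 cells, and cells with only SOX2 were 0.143%, or 13 cells. Of the cells that still held SOX2, 29.5% also held STMN2 at D22 and 88.4% at D24. Among cells with MKI67, the share with STMN2 was 19.96% at D22 and 71.9% at D24, the latter being 23 of 32 cells. No group of cells was known to lack these genes, so the share that free RNA gives was not measured. For comparison, STMN2 was found in 21.8% of the cells in the mitotic gate at D22 (median depth 15290 UMIs before thinning) and in 76.1% of the 71 such cells at D24 (median 10745), and SOX2 in 5.65% and 1.07% of the cells in the neuronal gate (medians 11333 and 7170). The gates do not exclude cells that make both, since 17 of the 71 cells of the mitotic gate at D24 also passed the neuronal gate. What part of these signals came from free RNA was not tested.

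**Figure D1:**
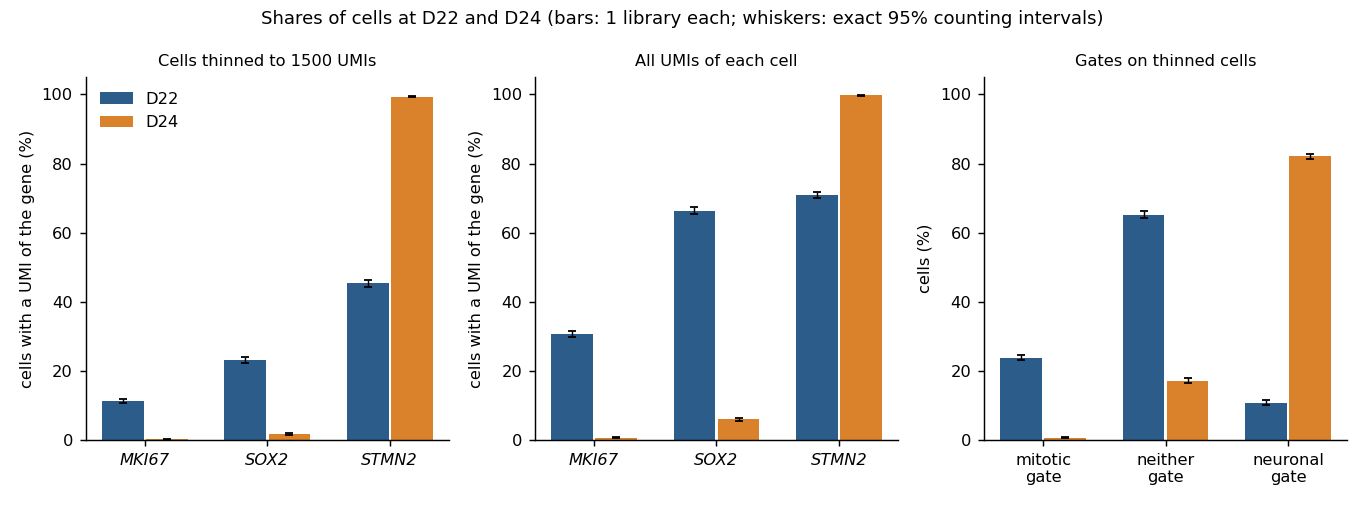
Share of cells with a UMI of MKI67, SOX2 or STMN2 at D22 (blue) and D24 (orange) after thinning each cell to 1500 UMIs (left) and with all UMIs (middle), and share of cells that passed the mitotic gate, neither gate or the neuronal gate (right). Bars are 1 library each and whiskers are exact 95% counting intervals. STMN2 reached 99.4% of thinned cells at D24, and the mitotic gate held 0.779% of them.

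Single genes are sparse in thinned cells, so the cells were also sorted by sums of genes. The mitotic gate asked for at least 2 UMIs over 10 genes of chromosome condensation and segregation (TOP2A, NUSAP1, UBE2C, CENPF, TPX2, BIRC5, CDK1, CCNB1, PRC1 and KIF11), and the neuronal gate for at least 5 UMIs over 8 genes of axons, filaments and release (DCX, GAP43, INA, RTN1, MAPT, SYT1, SNAP25 and ELAVL4). The mitotic gate held 2285 cells at D22, 23.95% (23.1 to 24.8%), and 71 cells at D24, 0.779% (0.609 to 0.982%). The neuronal gate held 1043 cells, 10.9% (10.3 to 11.6%), and 7479 cells, 82.1% (81.3 to 82.9%). Cells outside both gates were 65.3% and 17.3% of all, and 17 cells passed both gates on each day. At D26 the mitotic gate held 10 of 11060 cells and the neuronal gate 94.9%. The cut of the neuronal gate ran through a continuous range: 4.52% of D22 cells and 7.76% of D24 cells had 4 UMIs of its genes, and 2.90% and 10.4% had 5. The cells outside both gates were not alike on the 2 days. Those at D22 held STMN2 at 951 CPM, NEUROG1 at 607 CPM and DLK1 at 4227 CPM, and those at D24 held the same genes at 8256, 79.3 and 94.5 CPM, while the cells of the neuronal gate at D24 held them at 9290, 38.0 and 74.5 CPM. In STMN2 and DLK1 the D24 cells outside the gates were thus nearer to the cells of the neuronal gate of their own day than to the D22 cells outside the gates.

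Over all genes, 9845 of 25741 with any UMI had a mean of at least 5 CPM over the 2 libraries and were compared. Of these, 1218 were at least 2-fold lower at D24 (12.4%), 955 were at least 2-fold higher (9.70%), and 7672 lay within 2-fold. Below, lower and higher mean past 2-fold. The shares of 12.4% and 9.70% are the background against which the count of each list should be read. The genes that were lower took 12.0% of all UMIs at D22 and 3.47% at D24, and those that were higher took 7.204% and 19.8%. The median log2 ratio of the genes compared was -0.11, the shift against which single ratios should be read. The 2-fold genes were not spread evenly over the lists of genes described below, where the genes of mitosis and those of neurons stood at opposite ends.

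**Figure D2:**
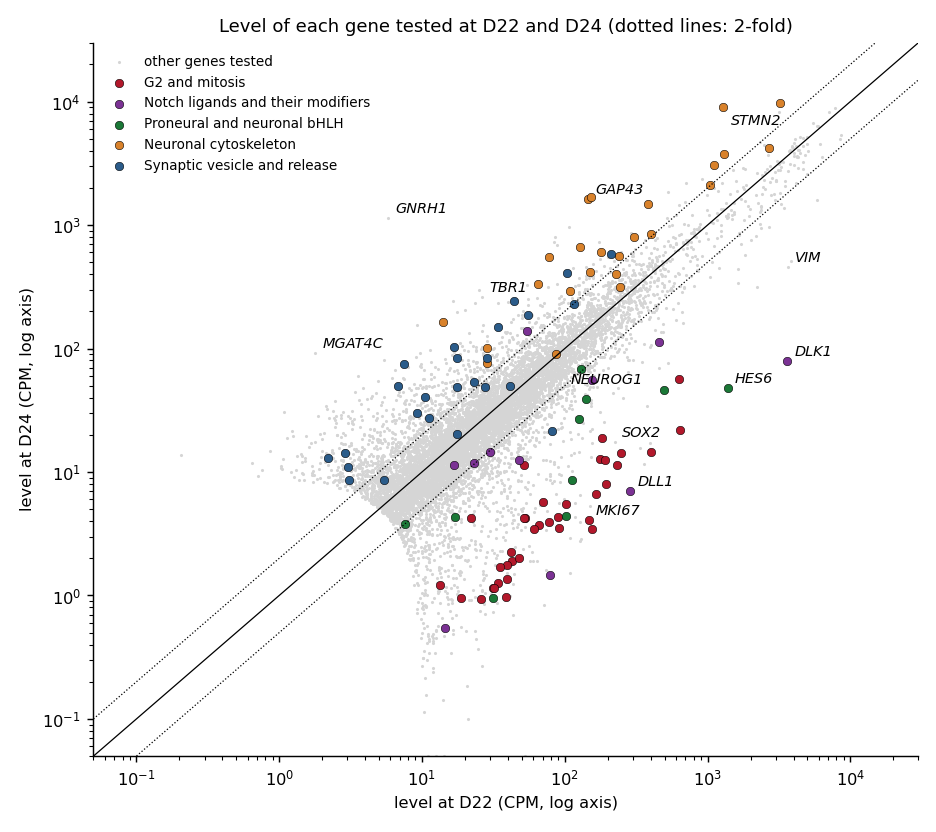
Level of each of the 9845 genes compared, at D22 (x axis) and D24 (y axis), in CPM on log axes, with members of 5 lists in colour and dotted lines at 2-fold. Genes of mitosis (red) and HES6, DLL1 and DLK1 lie far below the diagonal, and GNRH1, MGAT4C and GAP43 far above it.

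**Figure D3:**
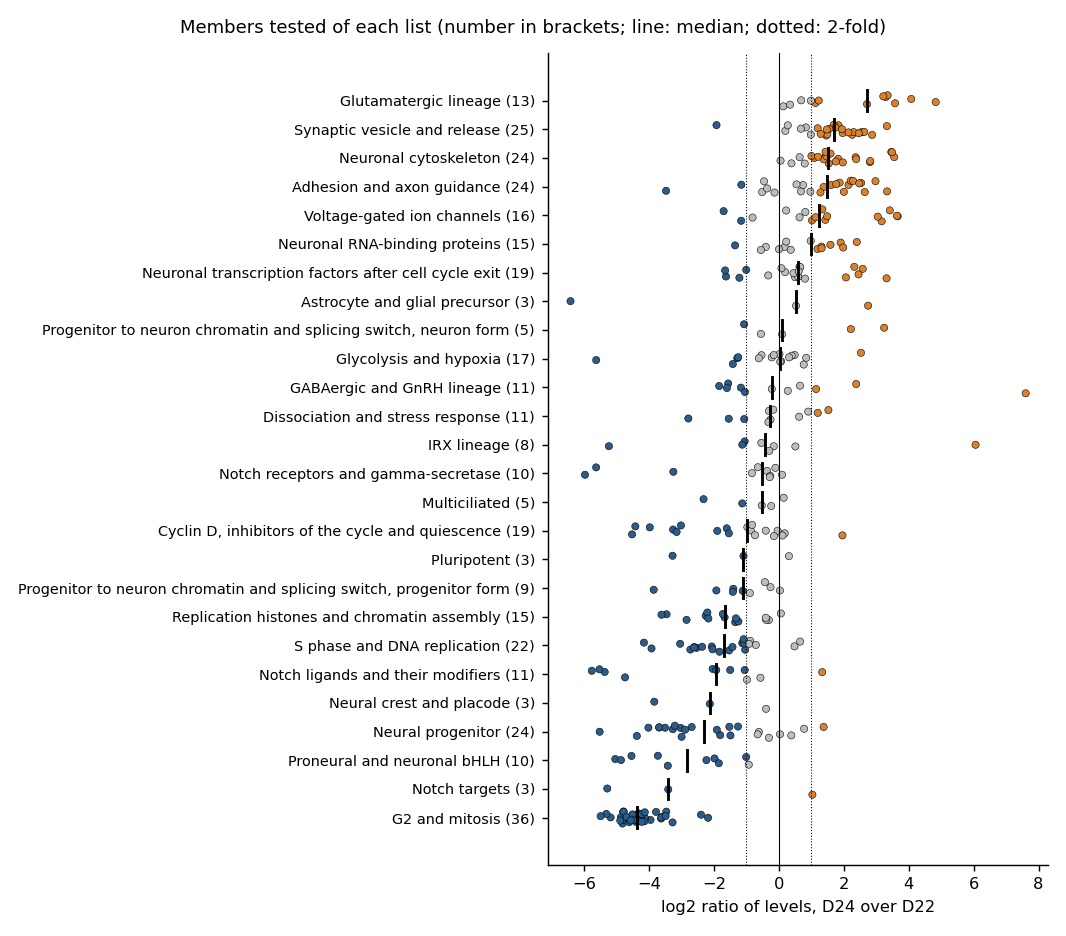
Log2 ratio of the level at D24 over D22 for each compared member of each list with at least 3 of them (points), with the median of the list (black line). Blue points are at least 2-fold lower and orange points at least 2-fold higher at D24. All 36 mitotic genes are blue, and 20 of the 24 genes of the neuronal cytoskeleton are orange.

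The genes of G2 and mitosis went in 1 direction without exception. All 36 were compared and all 36 were lower at D24, with a median log2 ratio of -4.36 and a range from -5.49 to -2.18, against 12.4% of all genes compared. Their summed level was 4545 CPM at D22 and 258 CPM at D24. TOP2A, the topoisomerase that untangles replicated chromosomes, was at 400.4 and 14.48 CPM, 27.7-fold lower. CENPF, a protein of the kinetochore, was at 644 and 21.9 CPM, 29.5-fold lower. UBE2C, the ubiquitin conjugating enzyme that drives mitotic exit, was at 247 and 14.2 CPM. DLGAP5, a spindle protein, was at 155 and 3.45 CPM, 44.9-fold lower, the largest step of the list. PTTG1, the securin that inhibits separase, is not a member of this list and was at 398 and 17.1 CPM. HMGB2, a chromatin protein of dividing cells, remained at 56.7 CPM from 635 CPM. The smallest step was that of the kinesin KIF20B, at 51.6 and 11.4 CPM.

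Many of these genes share letters at their start. Cycle genes of this class are known to be repressed outside G2 and mitosis through a cell cycle homology region, here searched as TTTGAA or TTCGAA, which often stands a short distance from a CCAAT box. Both were searched on both strands in the 250 bases before the start of each gene in RefSeq (GRCh38.p14), where the 2 motifs may overlap. Of 36 genes, 29 had an entry, and 17 of these (58.6%) held the first motif, against 14.6% of the 27305 windows of all genes, while 22 (75.9%) held CCAAT against 33.0%. CCAAT was not particular to this list. It was held by 83.3% of Notch targets, 59.1% of S phase genes, 55.6% of Notch ligands and modifiers and 50% of proneural and neuronal factors. Of the genes of the neuronal cytoskeleton and of synaptic release, 27.8% and 9.09% held it. The 18 genes of the neuronal cytoskeleton and the 22 of synaptic release that had an entry held the first motif in 0 windows. Of the genes of the list that hold it, the 6 with the highest mean level are shown because their transcripts were 9.66-fold to 44.9-fold lower at D24, with both motifs in capitals, 5′ to 3′ on the strand of the gene. Where an annotated exon touches the stretch, 30 bases are given.
TOP2A (chr17:40418015-40418074, minus strand): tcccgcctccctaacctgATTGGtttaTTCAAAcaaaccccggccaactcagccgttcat
CCNB2 (chr15:59105105-59105134, plus strand): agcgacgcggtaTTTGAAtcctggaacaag
CKS2 (chr9:89311135-89311194, plus strand): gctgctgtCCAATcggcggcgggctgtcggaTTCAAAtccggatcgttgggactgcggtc
DLGAP5 (chr14:55191662-55191721, minus strand): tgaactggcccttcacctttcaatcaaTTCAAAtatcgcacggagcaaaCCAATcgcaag
MKI67 (chr10:128126424-128126483, minus strand): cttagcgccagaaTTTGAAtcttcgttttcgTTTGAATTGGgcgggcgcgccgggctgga
HMMR (chr5:163460598-163460627, plus strand): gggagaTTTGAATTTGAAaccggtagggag
The windows of MKI67, TOP2A, DLGAP5 and HMMR held the first motif more than once. In that of MKI67, TTTGAA and the reverse complement of CCAAT share letters. A match of letters describes the sequence and was not taken as a bound site.

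Genes of S phase were lower as well, by smaller ratios. Of 22 compared, 17 were lower and 0 were higher, with a median log2 ratio of -1.68. RRM2, the cycle regulated subunit of ribonucleotide reductase, was at 26.6 and 1.49 CPM, 17.8-fold lower, whereas RRM1, its partner subunit, was at 71.8 and 26.7 CPM. CDT1, which licenses origins of replication, was at 17.7 and 1.17 CPM. The helicase subunit MCM7 was at 74.6 and 21.0 CPM, and PCNA, the sliding clamp of the polymerase, at 28.5 and 13.9 CPM. HELLS, a chromatin remodeller, was at 62.7 and 29.6 CPM. The letters GCGGGAA, a form of the E2F site, stood before 9 of the 22 S phase genes that had a RefSeq entry (40.9%), against 5.59% of all windows.

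Among replication histones and chromatin assembly factors 11 of 15 were lower and 0 higher. HIST1H1B, a linker histone made in S phase, was at 91.9 and 8.37 CPM. HMGN2, which binds nucleosomes, was at 1621 and 341 CPM, 4.76-fold lower. HIST1H4C, a gene of histone H4, stood apart from these, at 729 and 762 CPM. H2AFZ, a variant of H2A not tied to replication, was at 1249 and 1009.8 CPM, and H1FX, a linker histone, at 1015 and 775 CPM.

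The regulators that start or stop the cycle were mixed. Of 19 compared, 9 were lower and 1 higher. The D cyclins CCND1 (106 and 11.1 CPM) and CCND2 (111 and 13.8 CPM), which carry growth signals to the cycle, were 9.55-fold and 8.07-fold lower, and their kinase CDK4 was at 162 and 53.4 CPM. E2F1, the activator of S phase genes, was at 36.2 and 2.31 CPM. Several brakes of the cycle were lower too. CDKN1C, the inhibitor p57, was at 1639 and 441 CPM, 3.72-fold lower. GADD45G, a growth arrest gene, was at 336 and 15.7 CPM, and BTG2, an antiproliferative gene of neurogenic divisions, at 44.8 and 5.05 CPM. CDKN2D, the inhibitor p19 of CDK4 and CDK6, was the exception, at 42.2 and 164 CPM, 3.89-fold higher. CDKN1B, the inhibitor p27, was at 53.7 and 48.5 CPM, and BTG1 at 304 and 172 CPM, both within 2-fold.

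The neural progenitor list comprised SOX factors, radial glia genes and RNA-binding proteins, and 17 of its 24 compared members were lower and 1 was higher, with a median log2 ratio of -2.30. VIM, the intermediate filament of radial glia, was at 3632 and 456 CPM, 7.96-fold lower. Its partner filament NES was at 255 and 39.8 CPM. SOX1, SOX3 and SOX21 were 9.60-fold, 8.13-fold and 11.3-fold lower. ZFP36L1, which destabilizes messenger RNAs, was at 130.4 and 2.85 CPM, 45.8-fold lower. GLI3, a transducer of hedgehog signals, was at 40.7 and 1.96 CPM. FABP7, a fatty acid binding protein usually taken as a marker of radial glia, was the 1 member that was higher, at 134 and 348 CPM. PAX6, which specifies the dorsal forebrain, was at 95.9 and 34.2 CPM. CDH2, the cadherin of the neuroepithelium, was at 497 and 317 CPM, PTN, a secreted growth factor, at 323 and 261 CPM, and DBI, an acyl-CoA binding protein, at 200.1 and 344 CPM, all within 2-fold.

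Most of the Notch ligands and the 3 receptors compared were lower, while the genes of receptor cleavage lay within 2-fold. The targets were divided, with 2 of the 3 compared lower and 1 higher, and the summed level of all 7 targets was 83.9 and 73.6 CPM. Among ligands and their modifiers 8 of 11 compared genes were lower and 1 was higher. DLL1, the main Delta ligand of neurogenesis, was at 287 and 6.99 CPM, 41.1-fold lower. A UMI of it was seen in 72.2% of D22 cells and 4.52% of D24 cells. DLL3, a Delta protein that acts within the cell, was at 460 and 112 CPM, 4.11-fold lower. DLK1, an atypical relative of Delta made from an imprinted gene, was at 3623 and 78.8 CPM, 46.0-fold lower, and it led the ranking of lower genes with 5 CPM added to both levels. MFNG, a glycosyltransferase that modifies Notch, was at 78.7 and 1.45 CPM, 54.2-fold lower. MIB1, the ubiquitin ligase that lets ligands be taken up, was at 156 and 55.2 CPM. DNER, a transmembrane protein related to the Delta family and made by neurons, was higher, at 54.6 and 138 CPM.

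The receptors NOTCH1 (43.7 and 0.698 CPM), NOTCH2 (10.54 and 0.214 CPM) and NOTCH3 (10.54 and 1.11 CPM) were 62.6-fold, 49.4-fold and 9.49-fold lower. The subunits of gamma-secretase PSENEN (121 and 129 CPM) and APH1A (67.3 and 56.1 CPM), the sheddase ADAM10 (41.3 and 38.4 CPM) and RBPJ, the factor through which Notch acts on DNA (156 and 128 CPM), all lay within 2-fold, so that in this list of 10 compared genes the 3 receptors were the only ones past 2-fold.

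Of 7 classical target genes, 3 reached the level needed for comparison. HES5, a repressor that follows Notch activity in neural progenitors, was at 27.7 and 0.712 CPM, 38.9-fold lower, with a UMI in 21.0% of D22 cells and 0.538% of D24 cells. NRARP, a feedback inhibitor of the pathway, was at 15.2 and 1.44 CPM, 10.6-fold lower. HES4 was higher, at 33.8 and 69.1 CPM, with 2.05-fold standing just past the mark, and it no longer passed the mark when mitochondrial and ribosomal protein genes were left out of the totals. The remaining 4 were low throughout. HES1 was at 2.58 and 0.498 CPM, HEY1 at 1.79 and 1.62 CPM, HEY2 at 2.50 and 0.142 CPM, and HEYL at 0.313 CPM at D22 and without a UMI at D24. At the limit that a count of 0 allows, 0.0427 CPM at D24, HEYL was at least 7.32-fold lower. HES1, which is the usual partner of HES5 in progenitors, was thus scarce already at D22. Whether DAPT bears on this level was not tested, since no culture without it was collected on these days.

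The promoters of HES1, HES4 and HES5 are shown because HES5 and HES1 had lower levels at D24 and HES4 did not. Each holds TGGGAA, the core letters bound by RBPJ, in capitals, 5′ to 3′ on the strand of the gene.
HES1 (chr3:194136051-194136110, plus strand): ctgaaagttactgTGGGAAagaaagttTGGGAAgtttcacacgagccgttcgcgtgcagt
HES4 (chr1:1000156-1000185, minus strand): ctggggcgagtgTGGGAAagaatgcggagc
HES5 (chr1:2530311-2530370, minus strand): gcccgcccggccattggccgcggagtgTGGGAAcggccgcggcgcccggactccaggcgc
In the 250 bases before the start, TGGGAA on either strand was found in 5 of the 6 target genes with an entry and in 21.1% of all windows, and it was held by both HES4 and HES5.

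The proneural and neuronal basic helix-loop-helix (bHLH) factors, which commit progenitors to the neuronal fate and act for a short time, were nearly all lower. Of 17, 10 were compared, 9 were lower and 0 were higher, with a median log2 ratio of -2.82. Lower members numbered 8 with no filter on barcodes and with cells above a doublet score of 0.25 left out. Median of ratios scaling, described at the end, also gave 8. With mitochondrial and ribosomal protein genes left out of the totals, 9 of 11 were lower and 1 was higher. NEUROG1, the main proneural factor here, was at 496 and 46.4 CPM, 10.7-fold lower. Its UMIs were found in 78.6% of D22 cells and 20.5% of D24 cells. HES6, which antagonizes HES1 and promotes neurogenesis, was at 1385 and 47.7 CPM, 29.1-fold lower. The factors that act after the proneural step followed. NEUROD4 was at 103 and 4.43 CPM (23.2-fold lower), NEUROD1 at 142 and 39.4 CPM (3.60-fold lower), NHLH1 at 125 and 26.7 CPM (4.69-fold lower), and ATOH7 at 31.3 and 0.954 CPM (32.8-fold lower). NEUROG2 was at 17.0 and 4.31 CPM, and BHLHE22 at 7.62 and 3.80 CPM, at 2.01-fold just past the mark. TCF4, the broadly made E protein with which these factors pair, was at 129 and 67.9 CPM, at 1.90-fold just short of it.

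A member that went the other way was too low to be compared. NHLH2, a factor known from GnRH neurons, was at 0.884 and 6.90 CPM, 7.81-fold higher, on 116 and 485 UMIs. NEUROD2 was at 0.8004 and 0.214 CPM and OLIG3 at 2.61 and 1.84 CPM. NEUROG3, ATOH1, NEUROD6 and PTF1A had between 0 and 7 UMIs per library. NEUROG1, NEUROD1 and NHLH1 were lower again at D26, at 1.37, 14.7 and 2.78 CPM, so that D24 lay between D22 and D26 for all 3, while HES6 was at 55.1 CPM at D26 and so not lower than at D24.

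**Figure D4:**
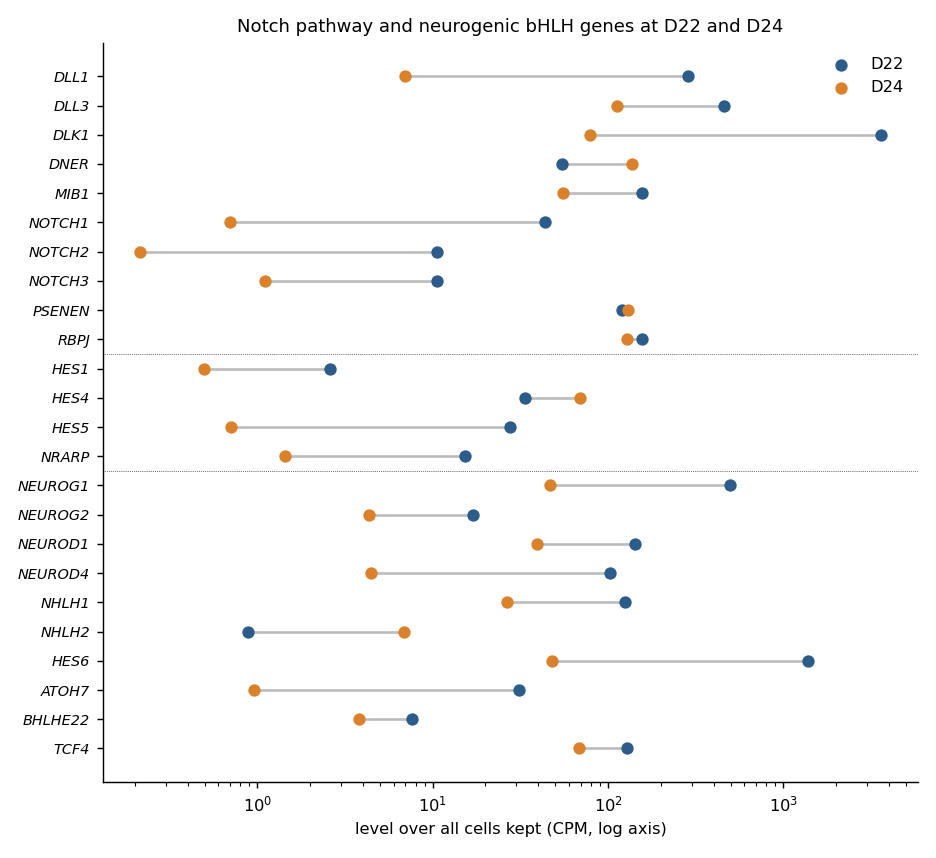
Level in CPM over all kept cells (log axis) of Notch ligands, receptors and cofactors (top), Notch targets (middle) and neurogenic bHLH factors (bottom) at D22 (blue) and D24 (orange), 1 library per day. Levels at D24 lie to the left for DLL1, DLK1, NOTCH1, HES5, NEUROG1 and HES6, to the right for DNER, HES4 and NHLH2, and close to D22 for PSENEN and RBPJ.

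Transcription factors of postmitotic neurons were split, with 4 lower and 5 higher among 19, against 12.4% and 9.70% of all genes compared. SOX4 (2403 and 2544 CPM) and SOX11 (1189 and 1879 CPM), which turn on neuronal genes in new neurons, were abundant on both days and within 2-fold. MYT1L, which represses other fates in neurons, was at 2.49 and 24.9 CPM, 9.98-fold higher, and POU2F2, a POU domain factor, was at 54.4 and 326 CPM, 5.996-fold higher. Those that were lower were EBF2 (22.5 and 7.30 CPM), POU3F1 (21.3 and 6.76 CPM), ZEB1 (149.8 and 64.6 CPM), which holds progenitors back from migrating, and INSM1 (257 and 128 CPM), a zinc finger factor of new neuronal precursors, at 2.00-fold.

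Chromatin and splicing factors are exchanged for neuronal forms when neurons are born, and part of this was seen here. REST, the repressor of neuronal genes outside neurons, was at 31.9 and 2.21 CPM, 14.4-fold lower. RCOR2, a corepressor that works with REST, was at 94.5 and 24.9 CPM. The BAF complex subunit of progenitors ACTL6A was at 79.6 and 42.9 CPM, within 2-fold, and its neuronal counterpart ACTL6B was at 9.02 and 85.5 CPM, 9.48-fold higher. The splicing regulator PTBP1 was at 33.3 and 12.6 CPM, and PTBP2, which replaces it in neurons, was at 141 and 96.0 CPM, within 2-fold. EZH2 (124 and 104 CPM) and HMGB1 (1928 and 1435 CPM) were within 2-fold. In all, 5 of 9 factors of the progenitor form were lower, and 2 of 5 compared factors of the neuron form were higher and 1, HMGN3 (418 and 199 CPM), was lower. Among neuronal RNA-binding proteins 7 of 15 were higher and 1 lower, against 9.70% and 12.4% of all genes compared. NOVA1, a splicing factor of neurons, was at 177 and 532 CPM, and ELAVL4, which stabilizes neuronal messages, at 94.4 and 235 CPM. ELAVL3 was at 269 and 305 CPM. SRRM4, which drives the inclusion of neuronal microexons, was lower, at 223 and 87.5 CPM.

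The genes of the neuronal cytoskeleton were higher almost throughout. Of 24 compared, 20 were higher and 0 lower, with a median log2 ratio of 1.505, against 9.70% of all genes. TUBA1A, the tubulin of migrating neurons, was at 3205 and 9663 CPM, and MAP1B, which stabilizes axonal microtubules, at 1301 and 3779 CPM, 2.91-fold higher. TUBB2A, a neuronal tubulin, was at 152 and 1673 CPM, 11.04-fold higher. GAP43, a protein of growth cones, was at 145 and 1622 CPM, 11.2-fold higher, and MAPT, which encodes tau, at 14.0 and 164 CPM, 11.8-fold higher. The neurofilaments NEFL and NEFM were 7.04-fold and 5.22-fold higher. STMN1, a relative of STMN2 that dividing cells make as well, was at 2689 and 4192 CPM, within 2-fold.

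Genes for synaptic release were mostly higher. Of 25 compared, 19 were higher and 1 lower. SYT1, the calcium sensor of release, was at 211 and 581 CPM, SCG3, a granin of dense core vesicles, at 104 and 406 CPM, and RAB3A, a vesicle GTPase, at 7.46 and 75.0 CPM, 10.0-fold higher. VAMP2, which fuses vesicles with the membrane, was at 116 and 231 CPM, at 1.98-fold just short of the mark. CPLX2, a regulator of fusion, was the member that was lower, at 81.3 and 21.5 CPM.

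Adhesion and guidance genes were higher in 14 of 24 and lower in 2, against 9.70% and 12.4% of all genes compared. NCAM1, an adhesion molecule of neurites, was at 43.2 and 173 CPM, and CNTNAP2, a cell adhesion protein of axons, at 125 and 326 CPM. DCC, the netrin receptor, was at 141 and 276 CPM, at 1.96-fold. The semaphorin receptor PLXNA2 was lower, at 42.6 and 3.84 CPM, as was the ephrin receptor EPHA4, at 62.6 and 28.1 CPM. CNTN2, an axonal adhesion molecule, was at 57.0 and 91.7 CPM and at 7.37 CPM at D26, so that D24 held the highest of its 3 levels.

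Voltage-gated channels were higher in 10 of 16 and lower in 2, against 9.70% and 12.4% of all genes compared. The sodium channel genes SCN2A (1.53 and 19.4 CPM), SCN3A (3.83 and 47.7 CPM) and SCN9A (7.94 and 71.4 CPM) were 12.7-fold, 12.4-fold and 8.99-fold higher. KCNQ3, a potassium channel gene, was lower, at 10.9 and 4.90 CPM.

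Genes of the neuron types made by this protocol differed in direction. Of the 13 compared genes of the glutamatergic lineage, 9 were higher and 0 lower, with the highest median of any list, 2.72 on the log2 scale. Many of these genes are ones the paper gives for a glutamatergic cluster found in these same libraries. It reports that the share of this cluster increased over these days. The high median was thus not independent of these data. TBR1, a factor of early glutamatergic neurons, was at 26.4 and 259 CPM, LHX1, a LIM homeodomain factor, at 20.01 and 204 CPM and PPP1R17, a phosphatase regulator, at 25.02 and 299 CPM. GABRA2, a subunit of the GABA receptor placed in this list, was at 1.07 and 30.6 CPM. EMX2, a cortical patterning factor, was at 299 and 593 CPM, at 1.99-fold, and LHX2 at 237 and 382 CPM.

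The GABAergic and GnRH list was divided, with 5 of 11 lower and 3 higher, against 12.4% and 9.70% of all genes compared. GNRH1, which encodes the GnRH peptide, had 5.82 CPM at D22 and 1131 CPM at D24, and its log2 ratio was 7.60 (7.501 to 7.71), the largest ratio upwards among the genes ranked (a mean of at least 20 CPM, with 5 CPM added to both levels). It came from few cells. A UMI of GNRH1 was seen in 94 cells at D22 and in 1310 cells at D24, at least 10 UMIs in 10 and 399 cells, and the 911 cells with the most held 99.5% of its UMIs at D24. At D22, 1 cell alone held 169 of its 763 UMIs. The interval of the ratio treats each UMI as independent, so it does not cover this spread between cells and is too narrow. The glutamate decarboxylase gene GAD2 was at 3.92 and 20.4 CPM, and DLX6-AS1, a transcript of the DLX5 and DLX6 locus, at 11.8 and 26.2 CPM. DLX6-AS1 overlaps DLX6 on the other strand. The factors DLX1 (35.4 and 9.91 CPM) and DLX2 (22.9 and 7.79 CPM), which specify GABAergic neurons, were lower at the same time, as were ISL1 (30.7 and 10.1 CPM) and SIX3 (227 and 101 CPM), while DLX5 was at 11.2 and 17.6 CPM. In the list of IRX lineage genes 3 of 8 were lower and 1 was higher, set beside the same shares of all genes. SFRP2, a secreted Wnt antagonist, was at 109.7 and 2.92 CPM, 37.6-fold lower, and SST, the somatostatin gene, was at 0.206 and 13.7 CPM on 27 and 964 UMIs.

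Among the 15 genes that ranked highest in each direction, several belonged to no list above. FEZF2, a forebrain patterning factor, was at 358 and 11.6 CPM, 30.9-fold lower. GPC3, a glypican of the cell surface that modulates growth factor signals, was at 109 and 1.52 CPM, 71.9-fold lower, and SMOC1, a secreted matricellular protein, at 128 and 2.75 CPM, 46.5-fold lower. C1orf61 was at 150.5 and 5.27 CPM. On the other side, MGAT4C, which belongs to a family of glycosyltransferases, was at 1.79 and 91.9 CPM, 51.3-fold higher. PPP2R2B, a regulatory subunit of protein phosphatase 2A, was at 16.6 and 241 CPM. SAMD3, which is in the glutamatergic list, was at 9.23 and 156 CPM. PCSK1N, an inhibitor of prohormone processing, was at 85.8 and 803 CPM, and RTN1, a reticulon of neuronal endoplasmic reticulum, at 107 and 968 CPM. TTC9B (23.4 and 232 CPM) and SMIM18 (5.38 and 80.7 CPM) completed the ranking with FSTL5, a follistatin-like secreted protein, which was at 17.6, 198 and 18.6 CPM at D22, D24 and D26 and so was highest at D24.

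Of 17 compared glycolytic genes 12 lay within 2-fold, and of 11 genes of stress and dissociation 6 did, against 7672 of all 9845 genes compared. The glycolytic share was close to that of genes at large, and both lists are too short to set them apart by this count. Over all genes compared, 12.4% were lower and 9.70% higher. GAPDH was at 2544 and 2672 CPM and TPI1 at 259 and 323 CPM. Of the enolases, ENO1 was lower, at 160 and 59.9 CPM, and ENO2, the neuronal isoform, was 5.78-fold higher, at 26.6 and 154 CPM. HK2, a hexokinase of proliferating cells, was at 11.9 and 0.242 CPM, 49.3-fold lower, and PKM was at 212 and 87.3 CPM. In all 4 of 17 glycolytic genes were lower and 1 was higher. Of 11 genes of stress and dissociation 3 were lower and 2 higher. JUN (40.5 and 117 CPM) and JUND (631 and 1449 CPM) were higher, and the heat shock genes HSPB1 (154 and 22.4 CPM) and HSPH1 (88.8 and 42.5 CPM) were lower.

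Among the markers of other cells, several were lower at D24. GJA1, a gap junction gene of radial glia and astrocytes, was at 71.7 and 0.840 CPM, 85.3-fold lower, while SLC1A2, a glutamate transporter, was at 1.96 and 13.2 CPM. KRT19, an epithelial keratin, was at 21.0 CPM at D22 and had 7 UMIs, or 0.0997 CPM, at D24. CCNO, which licenses multiciliated cells, was at 10.2 and 2.05 CPM. DPPA4, a gene of pluripotent cells, was at 53.8 and 5.57 CPM.

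A ratio over all cells mixes the share of neurons with the level in each of them, so the comparison was repeated in only the cells that passed the neuronal gate and not the mitotic one, 1026 at D22 and 7462 at D24. Outside the gate genes, 9658 genes reached a mean of 5 CPM, of which 421 were lower at D24 (4.36%) and 77 higher (0.797%). Because the gate asks for neuronal transcripts in each cell, the level of genes that go with them was in part set by the gate. The gated cells were also not alike on the 2 days. After thinning, a UMI of SOX2 was found in 5.65% of them at D22 and 1.07% at D24. Ratios within the gate can thus still mix cells of unlike stage. In these cells 0 of 20 compared genes of the cytoskeleton were lower and 1, TUBB2A (711 and 1742 CPM), was higher, and 0 of 23 genes of synaptic release were higher and 2 lower. NEFM was at 780.4 and 679 CPM, and TBR1 at 189 and 276 CPM. The bHLH factors were different. Of 11 compared, 9 were lower also within the gate, with a median log2 ratio of -2.06. NEUROG1 was at 275 and 38.0 CPM, HES6 at 506 and 31.5 CPM, NHLH1 at 171 and 20.8 CPM and NEUROD4 at 45.5 and 1.89 CPM. Notch ligands and modifiers were lower in 6 of 10, with DLK1 at 1144 and 74.5 CPM and DLL3 at 336 and 97.2 CPM. Of the progenitor genes 11 of 21 were lower, with VIM at 1286 and 389.8 CPM and SOX2 at 41.9 and 9.43 CPM. CDKN1C was at 1085 and 414 CPM, so that its lower level was seen within the gate too.

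GNRH1 was at 38.8 CPM in the gated cells at D22 and 1002 CPM at D24, the largest ratio upwards in the gate as well with 5 CPM added to both levels. It was followed by MGAT4C at 16.2 and 101 CPM. HIST1H4C, which lay within 2-fold over all cells, was higher within the gate, at 298 and 710.3 CPM. In the cells outside both gates it was at 267 and 658 CPM. Apart from the genes of the gates, 350 of the 1208 genes that were lower over all cells were lower within the gate as well, and 61 of the 947 that were higher were higher.

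**Figure D5:**
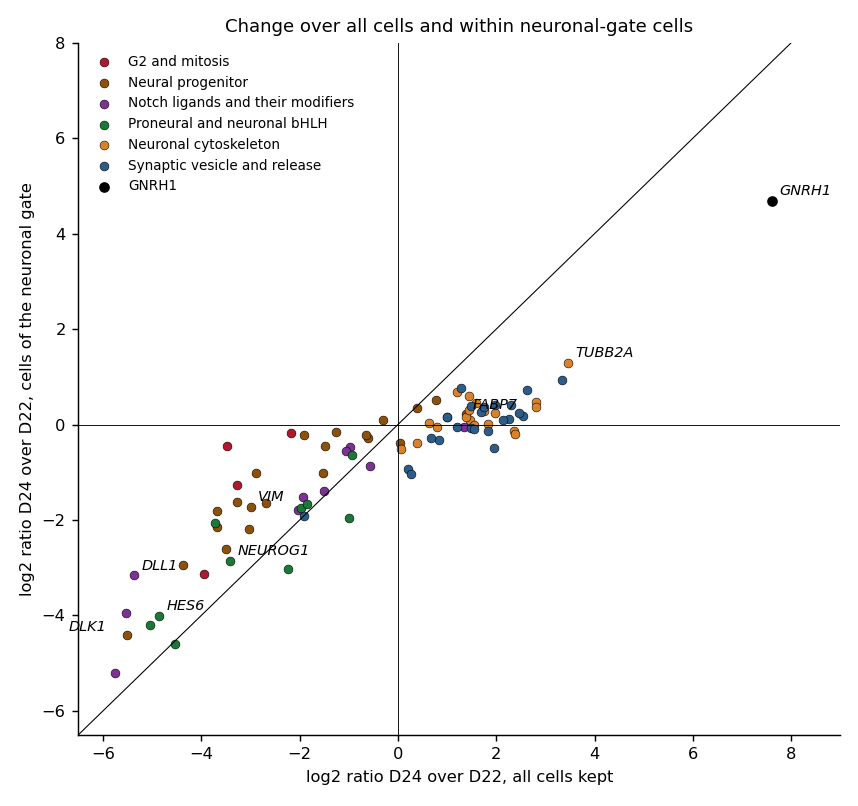
Log2 ratio of the level at D24 over D22 over all kept cells (x axis) and within cells of the neuronal gate (y axis) for GNRH1 and the genes of 6 lists that reached 5 CPM in both comparisons and were not used in a gate, with the line of equal ratios. Most genes of the cytoskeleton and of synaptic release lie within 2-fold on the y axis, with TUBB2A above it and CPLX2 among those below it, whereas HES6, NEUROG1, DLL1 and DLK1 stay negative on both axes and GNRH1 is positive on both.

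The cells that still held progenitor or mitotic transcripts at D24 were few and of more than 1 kind. A UMI of SOX2 was seen in 555 of 9110 cells and at least 2 UMIs in 254 cells, against 6332 and 4658 of 9539 cells at D22. Chosen by their SOX2, these 254 cells held it at 356 CPM, close to the 376 CPM of the D22 cells chosen in the same way. GNRH1 was at 6456 CPM in the 254 cells and at 926 CPM in the other cells of D24, and at 5.30 CPM in the D22 cells with at least 2 SOX2 UMIs. STMN2 was at 4999.7 CPM (13020 UMIs), against 472 CPM in those of D22. At least 10 UMIs of GNRH1 were seen in 84 of the 254 cells, 33.1% (27.3 to 39.2%), and in 315 of the 8856 cells with fewer than 2 SOX2 UMIs, 3.56% (3.18 to 3.96%). DLX5 was at 106 CPM in them and 14.2 CPM in the others, and DLX6-AS1 at 240 and 18.0 CPM. TBR1, by contrast, was at 33.4 and 268 CPM. Of the IRX list, NR2F1 was at 156 and 20.8 CPM, WLS at 88.7 and 4.08 CPM and CRABP1 at 554 and 121 CPM. SST, of the same list, went the other way, at 2.30 and 14.2 CPM. Higher levels in the 254 cells were thus not limited to genes of the GABAergic and GnRH list. The 254 cells held more UMIs than the rest, with a median of 9090.5 and 7153.5 UMIs, and 6.69% of them were above the doublet limit, against 6.84% of all D24 cells.

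Of the 254 cells, 44 passed the mitotic gate, and all 84 with at least 10 GNRH1 UMIs lay among the other 210. The 71 cells of the mitotic gate at D24 held MKI67 at 319 CPM and TOP2A at 1181 CPM, against 451 and 1284 CPM in the 2285 cells of the gate at D22, values that the gate helped to set. Some genes that the gate did not use differed between them. MT1X, a metallothionein that binds zinc and copper, was at 1664 CPM in the 71 cells, at 9.49 CPM in the other D24 cells and at 4.36 CPM in the cells of the mitotic gate at D22. MT2A, a second metallothionein, was at 853, 4.12 and 19.9 CPM in the same cells. At least 10 UMIs of MT1X were seen in 28 of the 71 cells (39.4%) and in 0 of the 2285 at D22, which allows a share of up to 0.131%. Of all 37 cells of D24 with that many, 28 lay in the mitotic gate. CCND1 was at 329 CPM, against 59.4 CPM in the cells of the mitotic gate at D22, and SOX2 at 240 against 400.0 CPM. VIM was at 2416 and 4005 CPM and DLL1 at 80.4 and 368 CPM. VXN, the neurogenic gene vexin, was at 229 and 0.963 CPM. Of the 71 cells, 17 also passed the neuronal gate, 23.9%, against 17 of 2285 at D22, 0.744%, and 4 of the 71 were above the doublet limit. Metallothionein genes are a family of close copies, between which reads can be split. Whether doublets or free RNA bear on the STMN2 and GNRH1 of these remaining cells was not tested.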

How the data were processed

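Cells of the line WA09 were profiled with 10x Genomics 3′ v3 chemistry, and the deposited values are whole-number UMI counts per gene and barcode, made by the authors with Cell Ranger 3.1 on the human genome GRCh38. The annotation release and strand setting are not given in the sources used here. Barcodes with at least 1500 UMIs, at least 1000 genes and a mitochondrial share under 20% were kept, which approximates the authors' filters on cells. UMIs were summed per library and divided by the library total to give counts per 1000000 UMIs (CPM). Ratios of CPM carry exact 95% intervals of a binomial split of the UMIs, shares carry Clopper-Pearson intervals, and differences of shares carry Newcombe intervals, all for counting error only. The floor of a count of 0 is 3 UMIs or cells. With 1 library per day no test was run, and lower and higher mean at least 2-fold among genes with a mean of at least 5 CPM. Cells were thinned to 1500 UMIs without replacement for shares and gates. Doublets were scored with Scrublet in scanpy 1.11.5, whose automatic threshold marked 419 cells at D22 and 0 at D24 and so had not worked for D24, and cells above a score of 0.25 were kept except in an alternative. Clustering was not used, so no cell was given a type name, and the gates are ranges along a sum of UMIs.

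The lists, gates and comparisons were chosen with earlier results of these data known. The rule for named genes took MKI67, SOX2 and STMN2, the 4 members of each list with the highest mean level and each member against the direction of its list, the 15 genes with the most extreme ratios in each direction (mean of at least 20 CPM, 5 CPM added), and all Notch targets and bHLH factors. A few genes that this rule names are not reported here. Other genes named were chosen after their values were seen. Promoter windows and their sequences came from RefSeq (GRCh38.p14) and gene positions from GENCODE on GRCh38. Of 164 genes, which are those named by the rule with MT1X and MT2A added, 12 overlap another gene on the same strand and 70 on the other. Their reads could be shared if strand was not used. Alternatives covered the filter on cells, doublets, the weight of cells, scaling, the level limit, the fold and the thinning. Calculations used Python 3.11.15, numpy 2.4.6, scipy 1.17.1 and pandas 2.3.3. The intervals were run on simulated counts drawn independently, which is what they assume. That run cannot tell how they hold for UMIs that lie together in few cells.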

Additional observations from a re-analysis of the deposited data

How the results depend on the processing

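Of the 54 alternative values computed, gene counts included, 20 moved beyond the counting interval or by over 1.5 times. No ratio of levels or difference of shares changed sign, while a count of genes has no sign to change. The 1218 lower and 955 higher genes became 1978 and 1560 with a mean of at least 1 CPM, 525 and 478 with a mean of at least 20 CPM, and 665 and 457 at 3-fold. The log2 ratio of SOX2 was -3.57 with median of ratios scaling. That of STMN2 was 2.82 without cells above the doublet limit, 2.66 as a mean over cells, 2.92 with median of ratios scaling and 2.74 without mitochondrial and ribosomal protein genes in the totals. Without thinning, the differences in share were -29.9 points for MKI67, -60.3 for SOX2 and 28.9 for STMN2. Thinned to 3000 UMIs, with 49 and 118 shallower cells left out, they were -16.7, -34.0 and 45.0 points, and with at least 2 UMIs required they were -3.50, -5.84 and 67.7 points. These shares depend on depth by construction. All 250 list members past 2-fold kept their direction under the 6 alternatives for cells and scaling, and between 239 and 250 stayed past 2-fold. Median of ratios scaling sets the median log2 ratio of -0.11 over the genes compared to 0, and then 1037 genes were lower and 1126 higher. No paired analysis was possible because each day is 1 library.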
